A study of Mus musculus with 8 samples.

Results

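The CCT chaperonin ring was read as 8 genes, Tcp1, Cct2, Cct3, Cct4, Cct5, Cct6a, Cct7 and Cct8, which were found by symbol in a table of 22065 named genes. All 8 were in the table, and all 8 passed the filter on low counts that left 16444 genes to test. CCT, also called TRiC, is the folding machine of the eukaryotic cytosol. It is built of stacked rings, each holding 1 copy of 8 different subunits, and it uses ATP to close a client protein inside its cavity. Actins, tubulins and proteins with WD40 repeats, such as the mitotic activator Cdc20, are known clients, so the complex bears on the cytoskeleton and on cell division. Tcp1 encodes the alpha subunit and Cct2 to Cct8 the beta, gamma, delta, epsilon, zeta, eta and theta subunits.

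RNA was sequenced from hematopoietic stem cells (HSCs), the bone marrow cells that renew the blood, in 8 libraries of 100 sorted cells each. Of these, 4 were labelled Mitol KO and came from Mitol Flox/Flox mice that carried MX1-cre, and 4 were labelled Control and came from Mitol Flox/Flox littermates without the Cre. Mice of both groups were C57BL/6, 8 to 10 weeks old by the labels, and had been given Poly:IC, which starts an interferon response. Whether that response was equal in the groups was not tested. The Mx1 promoter answers interferon in many tissues, so the deletion was not restricted to HSCs. The study's methods define long-term HSCs as Lineage- c-Kit+ EPCR+ CD48- CD150+ cells, while the labels name the sorted cells only as HSCs. The comparison asked how their transcripts differed 1 week after Poly:IC. Which animals gave which library is not given in the labels, so p-values measure only the spread between these libraries.

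Marchf5, which encodes the mitochondrial ubiquitin ligase MITOL and is the targeted gene, had 276, 232, 308 and 281 normalized counts in the libraries labelled Mitol KO and 299, 312, 333 and 262 in the control libraries. Normalized counts are read counts divided by a size factor for the library. The log2 fold change of Marchf5 was -0.15 (standard error 0.133, edgeR adjusted p = 0.498, lower than every control library in 1 of 4). The count covers the whole gene and cannot show whether the deleted part was missing, so groups are named below as the labels name them. The study's methods state that the deletion was checked by PCR in the mice taken as knockouts. Counts on named genes ranged from 7214935 to 12398138 per library.

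Markers of other cells and of the sort differed between libraries. Of 8 red cell genes, 4 were tested and 1 rose by edgeR, the beta globin Hbb-bt, where 4.68% of all tested genes did. DESeq2 did not call Hbb-bt (DESeq2 adjusted p = 0.0503), and edgeR kept its call in 3 of 8 fits that left out a library. Hbb-bt had 801 to 1432 normalized counts in Mitol KO and 144 to 595 in control libraries. The summed list held 918 to 3410 normalized counts in the libraries labelled Mitol KO and 256 to 737 in controls. Mitol KO replicate 3 alone held 388 normalized counts of Hba-a1, and Mitol KO replicate 4 held 523 of Car1, so both stood apart. Cd48, which the gate should exclude, had 22.2 to 63.4 normalized counts in Mitol KO libraries and 4.49 to 21.7 in controls and rose (log2 fold change 1.72, standard error 0.476, edgeR adjusted p = 0.045, higher in 4 of 4). Of 10 HSC genes, all were detected and 3 fell by edgeR, among them Hlf and Kit, which encodes the c-Kit of the gate, where 3.75% of all tested genes were called lower. Slamf1, which encodes the CD150 of the gate, had 412 to 669 normalized counts in Mitol KO and 299 to 410 in control libraries (log2 fold change 0.56, edgeR adjusted p = 0.0501), and Ly6a, which encodes Sca-1, had 574 to 1356 against 463 to 634 (0.76, 0.0605). DESeq2 called both higher, and both are named after their values were seen. Of 10 neutrophil, 8 B lineage and 7 T cell genes, 8, 4 and 4 were in the table, 2, 1 and 3 were tested and 0, 0 and 0 were called by edgeR, with 1, 0 and 1 at an unadjusted p under 0.05. DESeq2 called Prtn3 alone among these, higher in Mitol KO (DESeq2 adjusted p = 0.015). In the neutrophil list Elane reached 12.8 normalized counts at most and Mpo was at 0 in 3 libraries, and Prtn3 made up most of the sums of 485 to 1023 against 405 to 616. S100a8 and S100a9, made by mature neutrophils and not tested, held at most 1.57 and 0 normalized counts in Mitol KO libraries but up to 51.2 and 21.3 in controls. The B lineage sums were 136 to 150 against 145 to 204, mostly Cd79b. The T cell sums were 207 to 275 against 223 to 262, mostly Lck, with Cd3d at 0 in 3 libraries. Of 6 megakaryocyte and 6 mast cell and basophil genes, 4 and 2 were tested, and Pf4 and Gata2 fell. The megakaryocyte sums were 2381 to 5085 against 3143 to 4827, mostly Vwf. The mast cell and basophil sums were 3303 to 4331 against 4549 to 4847, nearly all Gata2, with Cpa3 at 21.1 normalized counts or less. In the megakaryocyte list Itga2b had 286, 351, 1111 and 1440 normalized counts in Mitol KO and 519 to 589 in control libraries (log2 fold change 0.49, edgeR adjusted p = 0.476) and Vwf had a log2 fold change of -0.04 (0.925). Bulk libraries cannot tell a change in the make-up of the sorted cells from a change in RNA per cell. What part these differences have in the results below was not tested.

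The regulatory sequence in front of 3 subunit genes is shown because these genes mark the ends of the result, Cct8 with the largest difference between the groups, Cct5 with the smallest, and Cct7 as the other subunit that missed the threshold, added after its values were seen. Each sequence is the 250 bases before the transcription start in the RefSeq promoter table, build GRCm38.p6, written on the gene's own strand. Capitals mark a match to 1 of 5 motifs searched on both strands, the heat shock element in both orders (GAANNTTC and TTCNNGAA), the E-box CACGTG, the CCAAT box and the ETS site CCGGAAG. In Cct7 the capitals read ATTGG because the CCAAT boxes lie on the other strand.
Cct8, chr16:87495870-87496119, minus strand: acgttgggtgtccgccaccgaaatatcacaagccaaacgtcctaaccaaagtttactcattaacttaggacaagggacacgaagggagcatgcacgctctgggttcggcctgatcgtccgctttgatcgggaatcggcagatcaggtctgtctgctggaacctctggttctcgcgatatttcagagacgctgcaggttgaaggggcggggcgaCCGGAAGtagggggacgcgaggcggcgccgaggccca
Cct5, chr15:31601847-31602096, minus strand: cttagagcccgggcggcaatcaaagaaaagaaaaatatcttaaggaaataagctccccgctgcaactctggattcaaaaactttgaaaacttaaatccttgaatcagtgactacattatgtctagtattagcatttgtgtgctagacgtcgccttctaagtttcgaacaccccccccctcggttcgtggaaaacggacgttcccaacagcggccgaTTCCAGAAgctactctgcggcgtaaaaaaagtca
Cct7, chr6:85451255-85451504, plus strand: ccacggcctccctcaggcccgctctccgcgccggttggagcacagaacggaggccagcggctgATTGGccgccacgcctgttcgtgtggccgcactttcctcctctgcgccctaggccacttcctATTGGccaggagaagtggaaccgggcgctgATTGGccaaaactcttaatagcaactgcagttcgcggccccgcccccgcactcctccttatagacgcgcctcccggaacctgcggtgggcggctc

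The table held 9 windows for 7 subunits, with 2 windows each for Cct2 and Cct5 and no entry for Cct4. CCAAT boxes lay in the windows of Tcp1, Cct3, Cct6a and Cct7, where 33.8% of 32851 promoters of the same length hold one. The ETS site lay in Cct8 and Cct2, against 6.91% of all promoters. The heat shock element TTCNNGAA lay in Cct5 (7.17% of all) and GAANNTTC in the second Cct2 window (6.69%), and no window held CACGTG (6.02%). No searched motif was found in all the windows. Cct8 held the ETS site alone, and Cct5 held the heat shock element in its first window and no match in its second. The log2 fold changes of Cct8 and Cct5 were 0.58 (standard error 0.119) and 0.4 (0.12), and their difference was not tested. A match is a stretch of letters and was not tested as a binding site.

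All 8 subunits were higher on average in the libraries labelled Mitol KO, by 1.32 to 1.5 fold, and 6 of the 8 passed an edgeR adjusted p of 0.05. Of all 16444 tested genes, 4.68% passed it in that direction, and of the 2168 genes at least as abundant as the least abundant subunit (1047 normalized counts) 8.49% did. In 6 of 8 subunits every Mitol KO library lay above every control library, as in 8.17% of tested genes. The median log2 fold change was 0.44 over the 8 subunits, -0.02 over all tested genes and 0.05 over the abundant ones, of which 58.2% were higher.

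Tcp1, the subunit that gave the complex its older name, had 1274, 1338, 1181 and 1061 normalized counts in Mitol KO replicates 1 to 4 and 972, 880, 913 and 757 in control replicates 1 to 4. The groups did not overlap, and the lowest library of each was replicate 4. Tcp1 rose by a log2 fold change of 0.45 (standard error 0.103, edgeR adjusted p = 0.0253).

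Cct2, the beta subunit, had 1950, 2091, 1730 and 1745 normalized counts in Mitol KO and 1606, 1319, 1534 and 1094 in control libraries. The groups were separate but close, since the highest control library, replicate 1, came near Mitol KO replicates 3 and 4. The log2 fold change of Cct2 was 0.42 (standard error 0.118, edgeR adjusted p = 0.0481), the nearest to the threshold of the 6 called subunits.

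Cct3, the gamma subunit, had 2663, 2820, 2480 and 2007 normalized counts in Mitol KO and 1870, 1678, 1935 and 1408 in control libraries. Mitol KO replicate 4 was again the lowest of its group and lay just above control replicate 3. The log2 fold change was 0.51 (standard error 0.122, edgeR adjusted p = 0.0272, higher in 4 of 4).

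Cct4, the delta subunit, had 3128, 3100, 3347 and 2790 normalized counts in Mitol KO and 2436, 2202, 2583 and 1942 in control libraries. Here Mitol KO replicate 3 was the highest library, unlike in Tcp1, Cct2 and Cct3, where replicate 2 was. Cct4 rose by a log2 fold change of 0.42 (standard error 0.1, edgeR adjusted p = 0.0287).

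Cct5, the epsilon subunit, had 3024, 3054, 2776 and 2384 normalized counts in Mitol KO and 2474, 1956, 2287 and 1712 in control libraries. The groups overlapped, because control replicate 1 lay above Mitol KO replicate 4. Its log2 fold change of 0.4 (standard error 0.12) did not pass (edgeR adjusted p = 0.0591, above every control library in 3 of 4).

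Cct6a, the zeta subunit of somatic tissues, had 1455, 1418, 1486 and 1117 normalized counts in Mitol KO and 1096, 942, 1021 and 801 in control libraries. The groups stood apart by the narrow gap between Mitol KO replicate 4 and control replicate 1. Cct6a rose by a log2 fold change of 0.49 (standard error 0.118, edgeR adjusted p = 0.0292).

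Cct7, the eta subunit, had 2259, 2302, 2263 and 1757 normalized counts in Mitol KO and 1943, 1422, 1615 and 1317 in control libraries. As in Cct5, control replicate 1 lay above Mitol KO replicate 4. The log2 fold change of 0.43 (standard error 0.127) did not pass (edgeR adjusted p = 0.0564, above every control library in 3 of 4).

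Cct8, the theta subunit, had 1676, 1648, 1510 and 1285 normalized counts in Mitol KO and 1134, 952, 1126 and 825 in control libraries. The groups did not overlap, and the nearest libraries were Mitol KO replicate 4 and control replicate 1. Cct8 rose by a log2 fold change of 0.58 (standard error 0.119, edgeR adjusted p = 0.017), the largest of the ring.

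**Figure D1:**
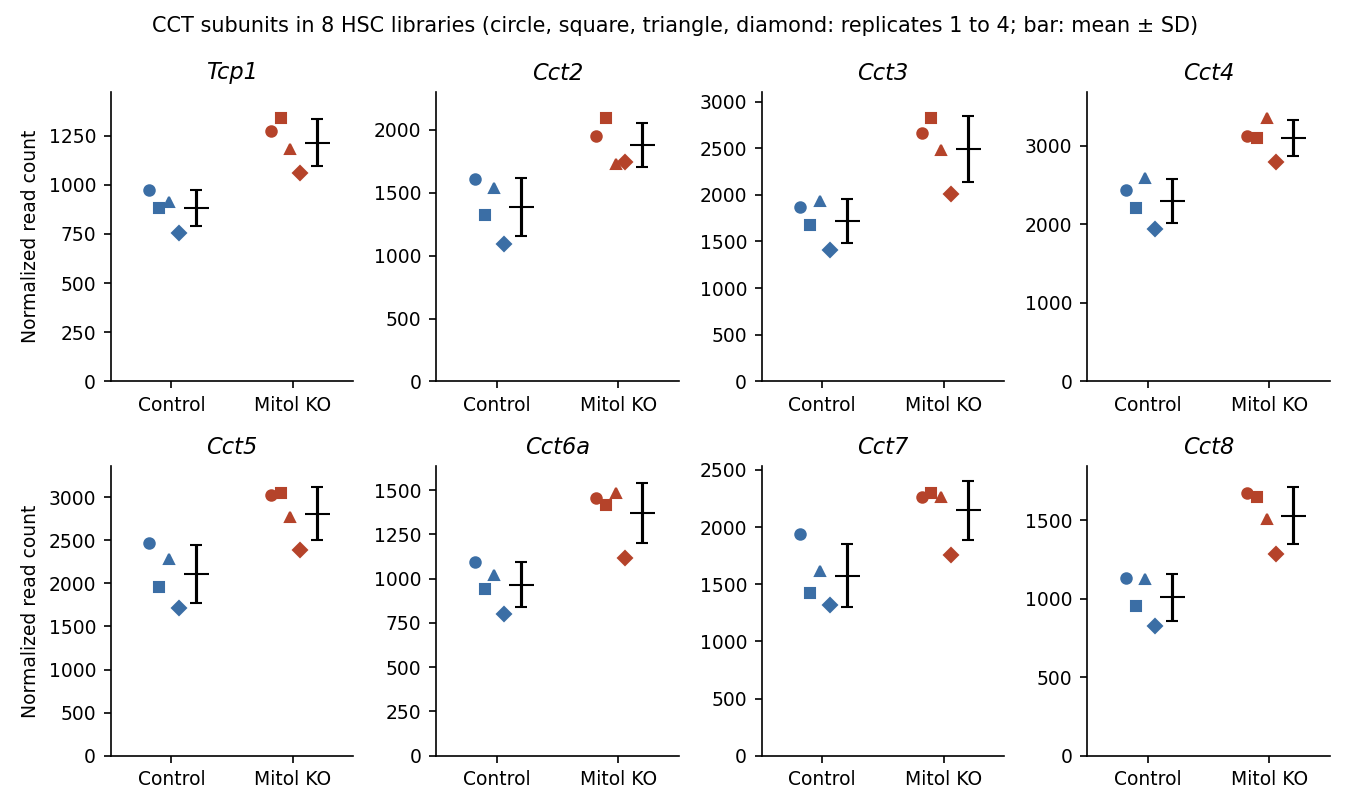
Normalized read count (y axis, from 0, a scale for each panel) of each CCT subunit in the 4 control and 4 Mitol KO libraries, with a marker shape for each replicate number and a bar for mean ± SD. Mitol KO libraries lie above all controls in 6 subunits, while in Cct5 and Cct7 control replicate 1 exceeds Mitol KO replicate 4.

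By the 2-sided exact permutation test of each subunit alone, p was 0.0286 for the 6 separated subunits, the smallest that 4 against 4 libraries can give, and 0.0571 for Cct5 and Cct7. DESeq2 called all 8 subunits, with adjusted p from 0.000372 for Cct8 to 0.0201 for Cct5, where it called 8.19% of its 16488 tested genes in that direction. The edgeR calls changed with the libraries in the fit. Without control replicate 2 the number of subunits called was 0, and without Mitol KO replicate 1, 2 or 3 or control replicate 4 it was 1, Cct8 each time, while 3 passed without control replicate 3. The calls over all genes fell in the same fits, from 1386 to between 359 and 811. All 8 passed without Mitol KO replicate 4, without control replicate 1, and without both Mitol KO replicates 3 and 4, which stood apart in Hba-a1 and Car1. In the same order, the calls over all genes were 2501, 1319 and 2422, with 8.77%, 4.64% and 8.57% of tested genes called higher, against 4.68% with all libraries. The direction stayed upward for all 8 in each fit that left out libraries, with log2 fold changes between 0.31 and 0.72.

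Summed over the 8 subunits, the ring held 17429, 17771, 16772 and 14147 normalized counts in the libraries labelled Mitol KO and 13531, 11350, 13013 and 9856 in the control libraries. This was 0.145% to 0.183% of the reads on named genes in Mitol KO and 0.112% to 0.142% in control libraries. The group means were 16530 ± 1640 and 11938 ± 1670 (SD, n = 4 each), a ratio of 1.38. The lowest Mitol KO library, replicate 4, and the highest control, replicate 1, differed little, so the groups were separate by a small margin. No p is given for this sum, since the members were chosen with results of these data known.

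Genes of cell division differed between the same libraries. Of 20 G2/M phase genes 19 rose, among them Bub1b, Tpx2, Ccna2 and Cenpe, and of 20 S phase genes 7 rose, among them Rrm2, Rrm1, Mcm4 and Cdc6, with 6 to 20 and 1 to 17 calls when 1 library was left out. Of all tested genes, 4.68% rose by edgeR. The call of Mcm4 was lost under a robust fit of all 8 libraries (adjusted p = 0.0654). The mean log2 normalized count of the S phase list was 10.36, 10.39, 9.67 and 9.26 in Mitol KO and 9.46, 9.27, 9.09 and 8.66 in control replicates 1 to 4. That of the G2/M list was 9.44, 9.42, 9.2 and 8.52 against 7.05, 6.78, 8.36 and 7.86. Within the Mitol KO group, replicate 4 was lowest in both lists and in the ring, and within the controls replicate 4 was lowest in the S phase list and the ring but not in the G2/M list. The part of these differences in the subunits' values was not tested.

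The subunits also moved together within the groups. After each group's mean was taken off the log2 normalized counts (with 1 added), the Pearson correlation between 2 subunits over the 8 libraries ranged from 0.74 to 0.99 over the 28 pairs, with a median of 0.91. Over all pairs of the 16444 tested genes the median was -0.001, and 3.93% of those pairs reached 0.74. Among the 2168 genes at least as abundant as Tcp1 the median was 0.07, and 7.84% of pairs reached it. These are descriptions over 8 points that share library, depth and normalization, and no p is attached to them. Spearman's rho gave a lower median, 0.81.

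Cct5 and Cct8 were the tightest pair (r = 0.99) and followed the others most closely. Each subunit was ranked among 16437 genes by correlation with the mean of its own other 7, which were left out of that ranking. Cct5 ranked 1 and Cct8 ranked 2, each in its own ranking and each with a correlation of 0.99. Cct3 ranked 74 and Tcp1 71, with correlations of 0.96 and 0.95. Cct6a followed at rank 161 and Cct7 at rank 224. Cct2 (0.88, rank 440) and Cct4 (0.86, rank 671) followed the ring least, and the lowest pairs joined Cct4 with Tcp1 and Cct2, both at 0.74. In Mitol KO replicate 3, Cct4 stood 0.12 above its group mean on the log2 scale and Cct2 at -0.11.

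**Figure D2:**
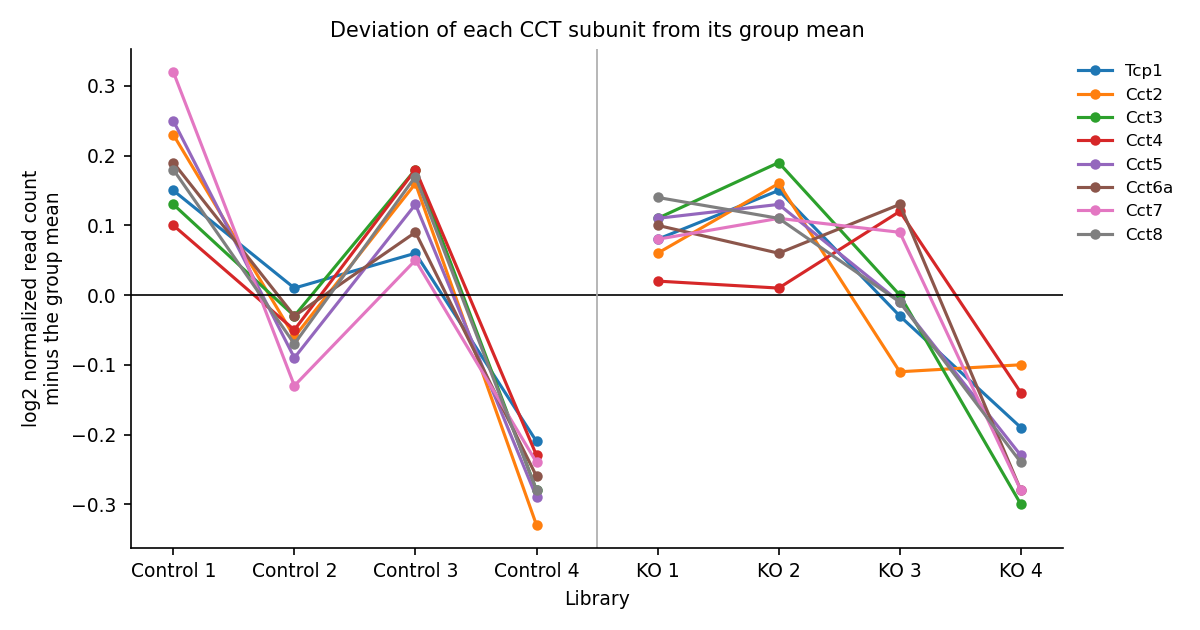
Deviation of the log2 normalized read count of each subunit from its own group mean (y axis) in each library (x axis), with a coloured line for each subunit within each group. All 8 lines lie below 0 in replicate 4 of both groups and above 0 in control replicates 1 and 3, and they spread most in Mitol KO replicate 3.

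The make-up of the ring shifted far less than its level. Against the mean of the other 7, each subunit's log2 normalized count varied over the 8 libraries by a range of 0.16 to 0.29, where its own level varied by 0.79 to 1.02. For 7 subunits this relative level overlapped between the groups, and the difference of the group means lay between -0.07 and 0.06. Cct8 differed. Its level relative to the other 7 was -0.35, -0.41, -0.45 and -0.44 in Mitol KO and -0.56, -0.57, -0.5 and -0.57 in control libraries, so the groups did not overlap and their means were 0.14 apart. As a share of the ring's normalized counts, Cct8 made up 9.01% to 9.62% in Mitol KO and 8.37% to 8.65% in control libraries. This contrast was picked out among 8 after the values were seen and was given no test.

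Levels were compared between subunits per kilobase of coding sequence, 1593 to 1668 bases in the annotation. On this scale the control libraries had 1416 ± 174 normalized counts per kb of Cct4, 1298 ± 209 of Cct5, 1054 ± 145 of Cct3, 964 ± 168 of Cct7, 865 ± 144 of Cct2, 614 ± 90.4 of Cct8, 606 ± 79.2 of Cct6a and 528 ± 54.3 of Tcp1 (SD, n = 4). Across the 4 control libraries, the range of each subunit in this order overlapped that of the next. In the libraries labelled Mitol KO the order was the same, from 1912 ± 142 for Cct4 to 728 ± 72.2 for Tcp1. Across these libraries, only the step from Cct2 to Cct8 was free of overlap. Compared within single libraries, Cct5 lay above Cct3, Cct2 above Cct8 and Cct6a above Tcp1 in every library of both groups. Each other step was reversed in some library. A protein ring needs equal numbers of its subunits, but these read densities are not protein levels. The order depends on the length used, since per kb of the canonical transcript Cct3 came first (816 ± 112 in controls) and Cct8 last (290 ± 42.7), and Cct4 took rank 5.

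**Figure D3:**
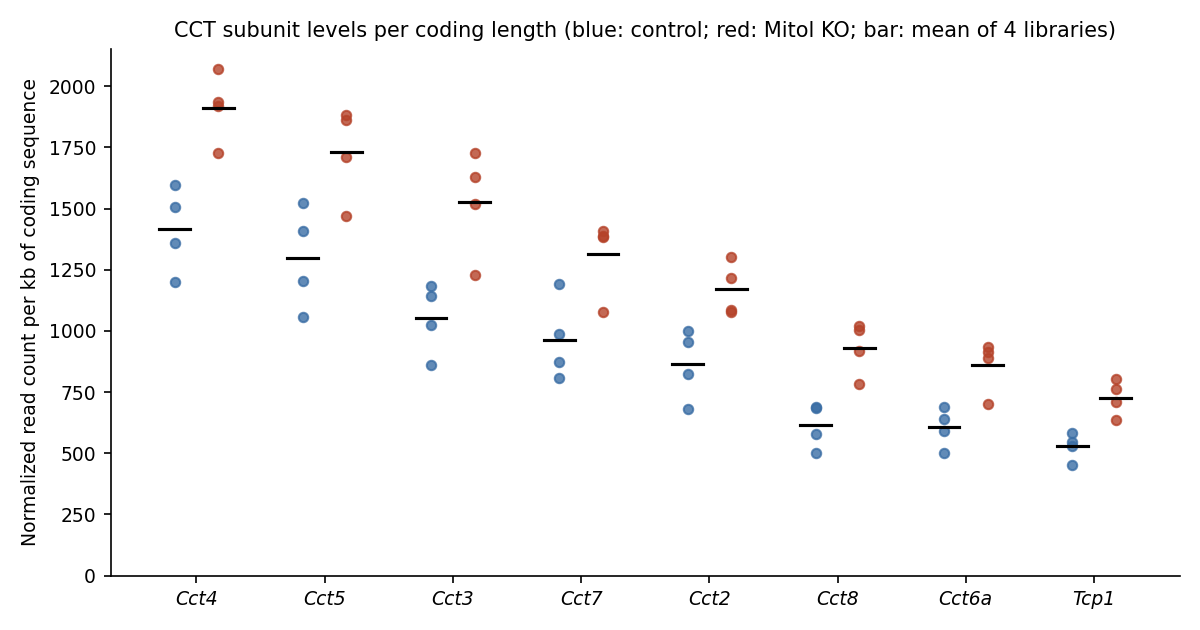
Normalized read count per kilobase of coding sequence (y axis, from 0) of each subunit, in falling order of the control mean, with a point for each of 4 control (blue) and 4 Mitol KO (red) libraries and a bar for the mean. Control means fall from 1416 for Cct4 to 528 for Tcp1, and each subunit's Mitol KO mean lies above its control mean.

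Prefoldin, which hands nascent actin and tubulin chains to CCT, had 0 of 6 genes past the edgeR threshold, 0 at an unadjusted p under 0.05 and 0 called by DESeq2. Its median log2 fold change was 0.2, and 5 of the 6 genes were higher. Of all tested genes, 4.68% rose and 3.75% fell by edgeR, so 0 calls do not set lists this short apart from all genes. Its subunit Vbp1 had 233, 186, 195 and 183 normalized counts in Mitol KO and 142, 177, 165 and 174 in control libraries (log2 fold change 0.26, standard error 0.147, edgeR adjusted p = 0.291, higher in 4 of 4). Cofactors that bind the ring itself had 0 of 4 tested genes past the edgeR threshold, 0 at an unadjusted p under 0.05, 0 called by DESeq2 and a median log2 fold change of -0.09, and 1 of the 5 listed was not analysed here. The phosducin-like cofactors Pdcl3 and Txndc9 had log2 fold changes of 0.26 (edgeR adjusted p = 0.416) and -0.27 (0.274). Pdcd5, a CCT binding protein, had -0.17 (0.715), and Pdcl, another phosducin-like cofactor, had -0.02 (0.929). Whether these values differ from those of the ring was not tested. The standard error of the log2 fold change was 0.136 to 0.356 over prefoldin, 0.114 (Pdcl) to 0.247 (Pdcd5) over the cofactors and 0.1 to 0.127 over the subunits.

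Of 6 actin and actin-related genes 3 rose, where 4.68% of all tested genes did. All 3 encode actin-related proteins, Actr2 and Actr3 of the ARP2/3 complex that starts branched filaments and Actr1a of dynactin. Actr1b, also of dynactin, did not pass (log2 fold change 0.21, edgeR adjusted p = 0.19). Actr3 had 871, 911, 816 and 712 normalized counts in Mitol KO and 638, 550, 657 and 573 in control libraries, without overlap (log2 fold change 0.43, standard error 0.105, edgeR adjusted p = 0.0292). Beta actin, Actb, had 49798 to 65492 against 45276 to 53763 normalized counts and did not pass (log2 fold change 0.25, edgeR adjusted p = 0.126, above every control library in 3 of 4).

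Of 12 tested tubulin genes 2 rose and 1 fell, with a median of 0.41, where 4.68% of all tested genes rose and 3.75% fell. Tuba1b, an alpha tubulin, rose by a log2 fold change of 0.8 (standard error 0.216, edgeR adjusted p = 0.0424), although its range of 1021 to 2406 normalized counts in Mitol KO overlapped 929 to 1153 in controls. The call of Tuba1b was lost with all 8 libraries under limma-voom (adjusted p = 0.0693), a robust fit (0.0815) and scaling to library totals (0.0504), and was kept in 1 of 8 fits that left out a library. Tubg1, the gamma tubulin of centrosomes, rose by 0.99 (standard error 0.259, edgeR adjusted p = 0.0372, above every control library in 3 of 4). Tubb5, a beta tubulin, had 12695 to 23889 against 11003 to 14643 normalized counts and did not pass (log2 fold change 0.56, edgeR adjusted p = 0.0635). Tubb1, the beta tubulin of platelets, fell from 11.3 to 33.2 normalized counts in controls to at most 5.2 in Mitol KO, with a fitted log2 fold change of -3.02 (standard error 0.566, edgeR adjusted p = 0.0127, lower in 4 of 4). The tubulin folding cofactors, which act on tubulin after CCT, had 0 of 6 genes called by edgeR but 5 at an unadjusted p under 0.05. DESeq2 called 1 higher, Tbcd, and 1 lower, Tbce, for which edgeR gave log2 fold changes of 0.27 (adjusted p = 0.0788) and -0.35 (0.0514), and both are named after their values were seen.

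Of 19 WD40 and other clients 4 rose, where 4.68% of all tested genes did. Of these 4, 3 act in the cell cycle. Cdc20 had 759, 670, 587 and 444 normalized counts in Mitol KO and 193, 116, 304 and 266 in control libraries (log2 fold change 1.46, standard error 0.253, edgeR adjusted p = 0.00934). The mitotic kinase Plk1 rose by 1.74 (standard error 0.379, edgeR adjusted p = 0.0205, higher in 4 of 4) and cyclin E1, Ccne1, by 1.62 (standard error 0.199, edgeR adjusted p = 0.00344, higher in 4 of 4). The call of Plk1 was lost under a robust fit of all 8 libraries (adjusted p = 0.0507). Trp53, whose product folds with help from CCT, rose by 0.31 (standard error 0.0848, edgeR adjusted p = 0.0423, higher in 4 of 4). Its call was lost with all 8 libraries under scaling to library totals (adjusted p = 0.0662) or upper quartiles (0.0711) and with the replicate block (0.0543), and was kept in 2 of 8 fits that left out a library. The median log2 fold change of the list was 0.18.

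Other chaperones rose beside the ring. Hspd1 and Hspe1, which encode the chaperonin of the mitochondrial matrix and its lid, both passed, where 4.68% of all tested genes passed upward. Hspd1 had 971, 896, 791 and 626 normalized counts in Mitol KO and 645, 463, 521 and 371 in control libraries, where only control replicate 1 and Mitol KO replicate 4 overlapped (log2 fold change 0.7, standard error 0.169, edgeR adjusted p = 0.0288). Hspe1 rose by 0.82 (standard error 0.213, edgeR adjusted p = 0.0368, higher in 4 of 4).

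Of 24 tested genes of the cytosolic HSP70 and HSP90 system 7 rose, with a median log2 fold change of 0.44, where 4.68% of all tested genes rose. DESeq2 called 9 of the list higher and 1 lower, where it called 8.19% of its tested genes higher. The log2 fold changes ran from -0.345 for Dnajc7 (edgeR adjusted p = 0.0642) to 3.67 for Hspa1b (standard error 1.16, 0.0676). Neither passed by edgeR, and both are named after their values were seen. Hsp90aa1, the inducible HSP90, had 2392, 2502, 2537 and 1846 normalized counts in Mitol KO and 1374, 1179, 1563 and 926 in control libraries (log2 fold change 0.86, standard error 0.151, edgeR adjusted p = 0.00963). Its co-chaperone Ptges3 (p23) rose by 0.83 (edgeR adjusted p = 0.0142), the constitutive Hsp90ab1 by 0.43 (0.0268), the J-domain protein Dnaja2 by 0.49 (0.0299) and the constitutive HSP70, Hspa8, by 0.76 (0.0387), each higher in 4 of 4 libraries. The call of Hspa8 was lost under a robust fit of all 8 libraries (adjusted p = 0.0778). With 1 library left out, the calls of Hspa8, Hsp90ab1 and Dnaja2 were each kept in 3 of 8 fits. Those of Ptges3 and Hsp90aa1 were kept in 7 and 8 of 8. Within the Mitol KO group Hspa8 was lower in replicates 1 and 2, at 5811 and 6253 normalized counts, than in replicates 3 and 4, at 9295 and 8372, whereas the ring sum was lowest in replicate 4. The 3 chaperonin-like genes of Bardet-Biedl syndrome, distant relatives that assist assembly of the BBSome, had 0 calls by edgeR, 1 at an unadjusted p under 0.05 and 0 by DESeq2. With 1 library left out at a time, the calls ranged from 1 to 12 in the HSP70 and HSP90 list, 0 to 2 in the mitochondrial chaperonin, 0 to 4 in the actin list, 1 to 5 in tubulins and 2 to 6 in the clients.

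**Figure D4:**
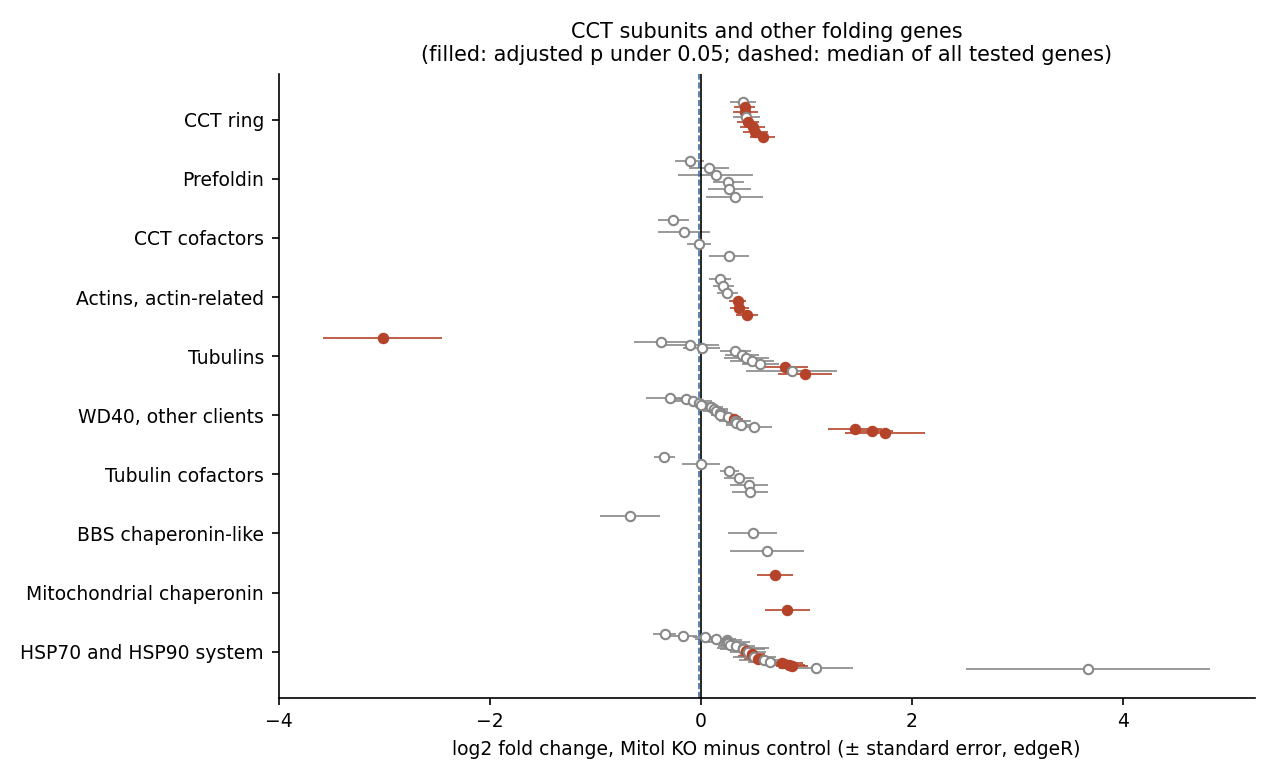
log2 fold change between Mitol KO and control libraries (x axis, ± standard error, edgeR) for each tested gene of the CCT ring and of 9 other folding lists (y axis), filled where the adjusted p is under 0.05. The 8 subunits lie in a narrow band from 0.4 to 0.58, prefoldin and the CCT cofactors hold no filled point, and Tubb1 lies far to the left at -3.02.

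The 10 genes whose log2 counts followed the ring most closely within the groups, of 12005 genes with at least 50 mean normalized counts, were Cd2bp2, Ythdf1, 5031439G07Rik, Tedc2, Pebp1, C1qbp, Idh3a, Cacybp, Serp1 and Usp37, with correlations of 0.978 to 0.986 over the 8 libraries. C1qbp and Idh3a encode mitochondrial matrix proteins, and none of the 10 was on a list of folding genes. Between the groups 3 of the 10 passed the edgeR threshold, Pebp1 (log2 fold change 0.51, adjusted p = 0.0291), Idh3a (0.6, 0.0452) and Cacybp (0.66, 0.0486), while Usp37 had 0.33 (0.192). Of all tested genes, 4.68% passed it upward.

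The 8 genes lie on 8 chromosomes, 17 for Tcp1, 10 for Cct2, 3 for Cct3, 11 for Cct4, 15 for Cct5, 5 for Cct6a, 6 for Cct7 and 16 for Cct8. Many share exon sequence with genes on the opposite strand in GENCODE vM39 on GRCm39, and the library method does not mark strand, so such reads cannot be assigned. At the 5' ends, Tcp1 and Mrpl18 share 442 exon bases and Cct6a and Psph share 465, and Mrpl18 (log2 fold change 0.58, edgeR adjusted p = 0.097) and Psph (0.47, 0.081) lay near their partners. Others did not. Atpsckmt, which starts 305 bases from Cct5 on the other strand, had -0.37 (0.124), and the noncoding B130034C11Rik, which starts 88 bases from Cct8 and shares 311 exon bases with it, fell by 0.95 (standard error 0.253, edgeR adjusted p = 0.0399, lower in 4 of 4), opposite to Cct8. Pradc1 beside Cct7 (0.29, adjusted p = 0.499) and Tsacc beside Cct3 (-0.37, 0.567) did not pass. At the 3' ends, Usp16 beside Cct8 (0.995), Acat2 (0.896) and Acat3 (0.884) beside Tcp1 and Cmbl beside Cct5 (0.693), given by edgeR adjusted p, did not pass. Of the small RNAs inside Cct6a, Gm23245 did not pass (0.469) and Snora15 was not tested. All these neighbours had fewer counts than the subunit they overlap. Processed copies of Cct3 (90.7% identity) and of Cct7 (92% identity) exist in the genome, and counts of their own were not analysed here.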

How the data were processed

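Bulk RNA-seq of 100 sorted HSCs per library was analysed in 4 Mitol KO and 4 Control libraries. The authors aligned the reads to mm39 with STAR, merged the alignments with SAMtools, made gene counts with Subread and deposited these counts as they were. The gene models used and whether counting was stranded are not given in the sources used here. Of 23094 rows, 1029 carry no gene symbol (0.335% to 0.467% of a library's counts) and were left out. No row sums to less than 11 counts.

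Counts were tested by the edgeR quasi-likelihood test (edgeR version 4.0.16, R version 4.3.3) after TMM normalization and its default expression filter, with condition as the sole term and Benjamini-Hochberg adjustment over all 16444 genes, at an adjusted p under 0.05. Every adjusted p above is from this fit unless DESeq2 (version 1.42.0) is named. Normalized counts are counts divided by DESeq2 size factors. Single subunits were also compared by exact permutation over 70 arrangements. Correlations used log2 of normalized counts with a pseudocount of 1, less each group's mean. Positions came from GENCODE vM39 (GRCm39), copies from minimap2 (version 2.31-r1302, at least 90% identity over 300 bases), and promoters from RefSeq (GRCm38.p6). The scripts were tested on simulated data. The reads carry no molecular identifiers, so copies of 1 molecule may be counted more than once.

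The subunits, gene lists and rules for naming genes were chosen with earlier results of these data known, and the promoter motifs were chosen after the table was read. Named were all 8 subunits, up to 4 called genes of each other list by lowest p, a set of 16 partners, clients and regulators whatever their result, overlapping neighbours, and the 10 genes most like the ring. Alternatives covered other normalizations, no filter, DESeq2, limma-voom (limma version 3.58.1), a robust fit, the replicate number as a block, and each library left out. Leaving out Mitol KO replicates 3 and 4 together was added after seeing the data.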

Additional observations from a re-analysis of the deposited data

Results flagged for a closer look

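Among 36 groups of 4 libraries (each subunit, Marchf5, the ring sum and each subunit's share of the ring), 2 held a library far from the others by Dixon's ratio test, and chance alone gives about 1 in 20 such groups. Cct7 had 1757 normalized counts in Mitol KO replicate 4, where the other 3 Mitol KO libraries lay between 2259 and 2302, and the gap was 0.921 of the group's range. Cct8 made up 8.65% of the ring's normalized counts in control replicate 3, against 8.37% to 8.39% in the other 3 controls (0.939 of the range).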

How the results depend on the processing

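All 8 subunits stayed higher in Mitol KO libraries under every alternative. The numbers of subunits called with all 8 libraries follow, with the share of all tested genes called higher in brackets. Scaling of library totals (3.66%) or upper quartiles (3.61%) alone gave 5, where Cct2 was lost. RLE (5.0%), no filter (3.47%) and a robust fit (4.34%) gave 6, limma-voom (4.47%) gave 7 and DESeq2 (8.19%) gave 8. With the replicate number as a replicate block, 8 subunits and 1652 genes were called (5.82% of all tested genes called higher). The labels do not say whether the numbers pair the libraries. Correlations of the libraries' deviations were -0.07 to 0.08 for the same number and -0.126 to 0.0971 for different numbers, which does not settle it. DESeq2 called 2315 genes in all, and 2422 were called without Mitol KO replicates 3 and 4. With 1 library left out, the number of subunits called ranged from 0 to 8 and of genes from 359 to 2501, the ring's log2 difference from 0.394 to 0.559 (0.48 with all), the median correlation of subunits from 0.839 to 0.944, and the log2 fold change of Marchf5 from -0.213 to -0.0751. Spearman's rho gave a median of 0.81 in place of 0.91. Over single subunits and settings, 94 of 136 values kept direction and side of the threshold, 31 lost the call, 11 gained it and 0 turned sign. Among other named genes, 604 of 720 values kept direction and side of the threshold, 94 lost the call, 9 gained it and 13 turned sign, the last all in neighbours whose fold change lay within its standard error of 0. Acat2 gave -0.0093 under upper quartile scaling and -0.0953 to 0.194 with a library left out, Usp16 -0.0535 with library totals, -0.0597 with upper quartiles and -0.053 to 0.0622 with a library left out, and, with a library left out, Acat3 -0.491 to 0.179 and Cmbl -0.448 to 0.00333. The cause of these differences was not tested. The number of libraries and of cells in each limits what differences could be detected.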

Other observations

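Relatives and regulators of the ring are given here as values. Cct6b and Cct8l1, CCT relatives known from testis, had 28 and 24 reads in all over the 8 libraries and were not tested. Cct6b held 0 to 5 reads in Mitol KO and 3 to 6 in control libraries, and Cct8l1 0 to 2 and 2 to 8.

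Of 5 transcription regulators, 0 passed the edgeR threshold, where 4.68% of all tested genes rose and 3.75% fell. An unadjusted p under 0.05 was found for 2, and DESeq2 called 0. Hsf1, the main heat shock factor, had 1036 to 1248 normalized counts in Mitol KO and 997 to 1223 in control libraries (log2 fold change 0.11, edgeR adjusted p = 0.512). Myc had 1441 to 1915 against 1616 to 2557 normalized counts, in the other direction (-0.22, 0.367). Mycn, named after its values were seen, had 2821 to 3224 normalized counts in Mitol KO and 1834 to 2838 in control libraries (0.31, 0.112). Transcript levels of these factors say nothing of their activity.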
